A study of Mus musculus with 20 samples.

Results

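The genes described here are 9 genes of tumour macrophages, followed in leukocytes (CD45+) and other cells (CD45-) of mouse mammary tumours grown from the 66cl4 or the 67NR line. They were listed by name, with no threshold on their values, and are 9 of the 52783 genes of the table. All 9 passed the filter on low counts over the 4 groups, as did 16453 genes in all. Adgre1, Cd68, Cx3cr1, Mertk and Maf mark macrophage identity. Trem2, Gpnmb, Spp1 and Apoe are genes known from lipid-associated macrophages.

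66cl4 and 67NR are cell lines of the 4T1 mammary cancer model, of which 66cl4 is metastatic and 67NR is not. Cells of 1 line were injected into the mammary fat pad of young adult female BALB/cJ mice, which have an intact immune system and received no treatment. Each of 10 animals, 5 per tumour, was sampled in both gates, CD45+ and CD45-, which makes 20 libraries. CD45, encoded by Ptprc, is carried by leukocytes in general, so the CD45+ gate holds macrophages together with neutrophils, lymphocytes, mast cells and other leukocytes, and the CD45- gate holds tumour cells with stroma. Each tumour type rests on 1 cell line, so metastatic ability and other properties of the line cannot be told apart.

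Macrophages take up dying cells and lipid, and their programs are often read from a few genes. Adgre1 (F4/80) is an adhesion receptor used as the classical mouse macrophage marker, Cd68 is a glycoprotein of lysosomes and endosomes, Cx3cr1 is the receptor for the chemokine fractalkine, Mertk is a receptor tyrosine kinase for the uptake of apoptotic cells, and Maf is a transcription factor of mature macrophages. Trem2 is a lipid-sensing receptor that signals through the adaptor Tyrobp, Gpnmb is a transmembrane glycoprotein of lysosome-rich cells, Spp1 encodes the secreted protein osteopontin, and Apoe encodes a lipoprotein component that carries cholesterol out of cells.

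Total counts ranged from 12960000 to 28080314 per library. The recorded cell type of 66cl4 animals 5 and 6 contradicts the titles of their libraries in both gates, and the titles were followed. In these 2 animals, Ptprc stood at 17697 and 20442 normalised counts in the libraries titled CD45+ and at 138 and 40.4 in those titled CD45-. Normalised counts are estimated counts divided by a size factor per library. Over all animals Ptprc ranged from 15890 to 28449 in CD45+ cells and from 10.6 to 473 in CD45- cells. In CD45+ cells the summed level of 5 macrophage reference genes (Csf1r, Fcgr1, C1qa, C1qb and C1qc) was 24937 to 41465 in 66cl4 against 43644 to 81713 in 67NR tumours, without overlap. The 3 C1q genes carried this, whereas Csf1r (log2 fold change -0.18, edgeR adjusted p = 0.546) and Fcgr1 (-0.29, adjusted p = 0.216) overlapped between the tumours. Neutrophil markers (9 genes) summed to 44260 to 125358 in 66cl4 against 7202 to 52372 in 67NR tumours, ranges that overlapped. Their median sums were 113239 and 16973. By the thresholds given below, 5 of 8 tested were called higher in 66cl4 tumours, against 5.01% of all genes, and 0 lower, against 6.82%. Mast cell markers (6 genes) summed to 1476 to 4169 and 19240 to 26863, without overlap. Summed monocyte markers (7 genes) overlapped, at 46285 to 75638 and 37894 to 61033. No marker of these 4 lists was at 0 in all CD45+ libraries of a group. In such sorted bulk samples, fewer cells of a type and less RNA per cell cannot be told apart.

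Sequences upstream of 7 of the 9 genes were found in a RefSeq table for GRCm38.p6, in 10 windows of 250 bases before a transcription start. The windows were searched on both strands for the PU.1 core GAGGAA, the Maf half-site TGCTGA, the AP-1 site TGANTCA and the E-box CACGTG. PU.1 is the defining transcription factor of myeloid cells, Maf factors bind half-sites of the kind searched, AP-1 factors bind the third motif, and the MiT/TFE factors of lysosomal genes bind E-boxes. The upstream windows of Trem2 (chr17:48346151-48346400, plus strand) and of the first start of Spp1 (chr5:104434861-104435110, plus strand) are shown because these are the members called higher in 66cl4 CD45+ cells. Capitals mark the PU.1 core, which in Trem2 is read on the minus strand as TTCCTC, and, near the end of the Trem2 window, the AP-1 site.
Trem2: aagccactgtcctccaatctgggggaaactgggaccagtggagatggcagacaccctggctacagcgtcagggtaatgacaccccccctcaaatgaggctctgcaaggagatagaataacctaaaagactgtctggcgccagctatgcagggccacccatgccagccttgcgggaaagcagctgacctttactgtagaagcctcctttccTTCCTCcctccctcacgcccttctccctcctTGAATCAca
Spp1: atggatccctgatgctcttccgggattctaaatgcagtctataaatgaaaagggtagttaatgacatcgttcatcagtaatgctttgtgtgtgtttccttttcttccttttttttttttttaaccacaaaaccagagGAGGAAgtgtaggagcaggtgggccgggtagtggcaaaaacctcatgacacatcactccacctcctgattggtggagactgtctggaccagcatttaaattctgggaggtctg
In Trem2 the PU.1 core began 40 bases and the AP-1 site 9 bases before the start. In Spp1 the PU.1 core began 113 bases before the start. The bases after this start of Spp1 matched no reference transcript of the gene. Those after its second start did, and the window of that start held none of the motifs. A PU.1 core was found in 5 of the 10 member windows, from 4 of the 7 genes (Trem2, Spp1, Apoe and Cd68), and in 23.4% of 32536 windows of all genes. The windows of the second starts of Spp1 and Apoe held none. The AP-1 site was found in 2 of the 10, those of Trem2 and Cd68, and in 6.73% of all windows. No member window held the Maf half-site or the E-box, which were in 16.1% and 6.04% of all windows. The motifs overlap in no member window shown, and a match is only a match of letters.

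The comparison of CD45+ cells asks which of these genes differ between leukocytes of metastatic and non-metastatic tumours. Adgre1 and Apoe were lower and Trem2 and Spp1 higher in 66cl4 tumours, so that the lipid-associated genes were split in direction and 1 of the 5 identity genes was called. A call needed an absolute log2 fold change over 1 and an adjusted p-value under 0.05 (edgeR's quasi-likelihood test, Benjamini-Hochberg). Of the 9 genes, 2 were called higher, against a background of 5.01% of all genes tested, and 2 lower, against 6.82%. The median log2 fold change was -0.10 over the 9 genes and 0.01 over all genes.

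**Figure D1:**
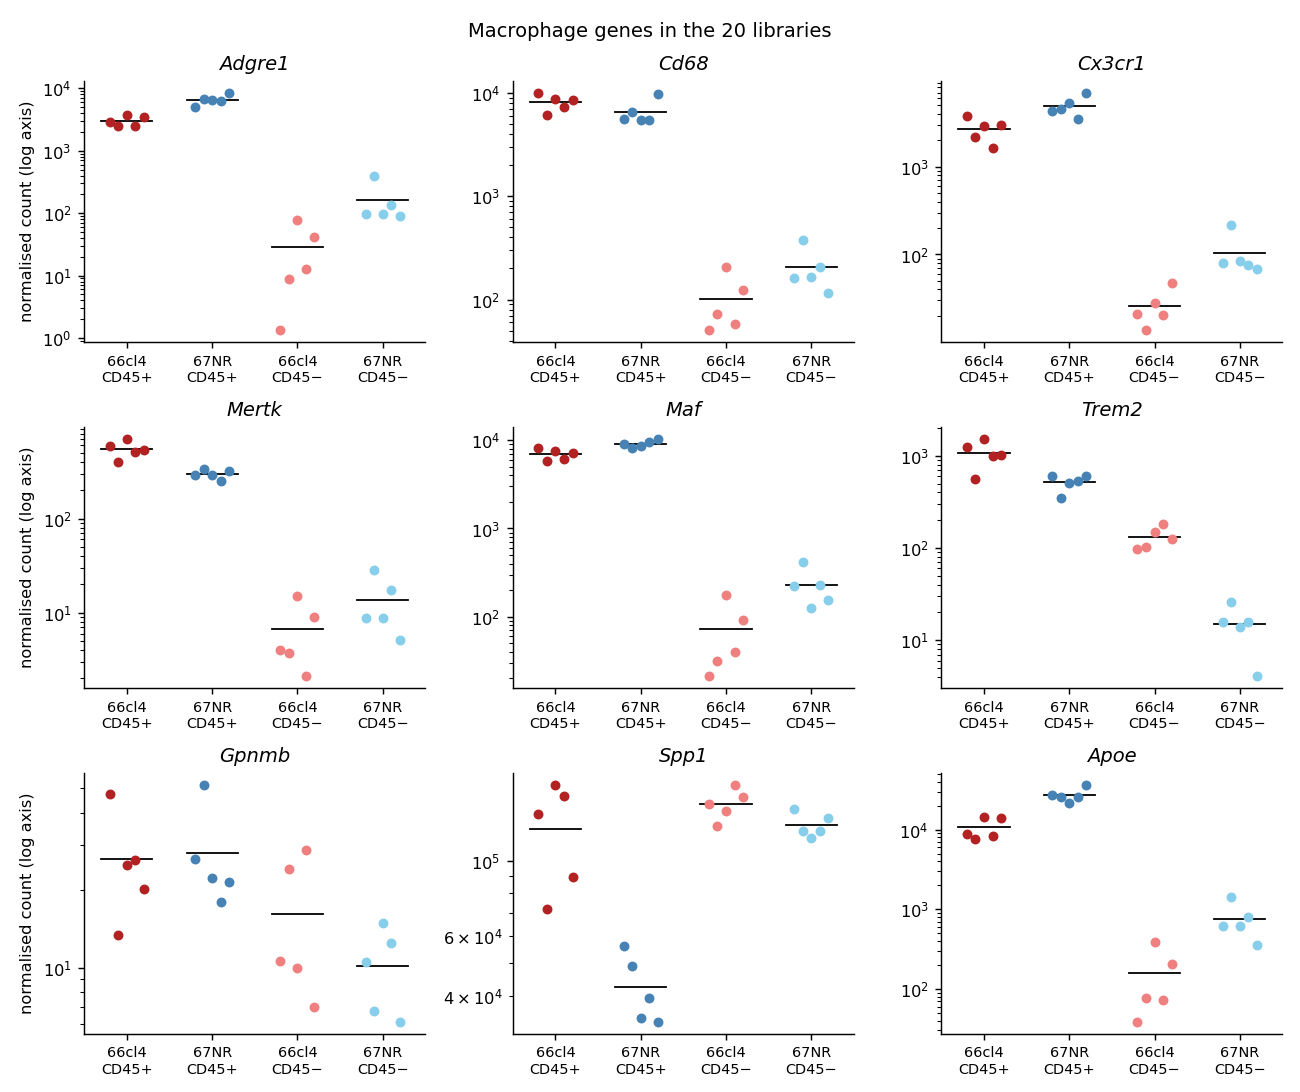
Normalised counts of the 9 genes in each of the 20 libraries, on a log axis whose range differs between panels; points are animals and lines are group means (n = 5). Adgre1 and Apoe of CD45+ cells lie lower in 66cl4 than in 67NR tumours and Spp1 lies higher, without overlap, whereas Trem2 of CD45- cells separates the tumours in the direction opposite to Adgre1.

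Among the identity genes, Adgre1 showed the clearest difference. Its normalised counts in 66cl4 CD45+ libraries were 2893, 2460, 3791, 2499 and 3469 in animals 3, 4, 5, 6 and 7. In 67NR CD45+ libraries they were 4935, 6741, 6440, 6363 and 8453 in animals 1, 4, 5, 6 and 7. Every 67NR library stood above every 66cl4 library, with a mean 2.18 times as high. This was a log2 fold change of -1.11 (SE 0.158, edgeR adjusted p = 0.000672). With all 20 libraries in the fit the value was the same and the adjusted p was 0.0822.

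Cx3cr1 leaned the same way without being called. It had 3812, 2182, 2910, 1636 and 2965 normalised counts in 66cl4 and 4352, 4531, 5320, 3521 and 6935 in 67NR CD45+ libraries. The groups overlapped only in that 66cl4 animal 3 stood above 67NR animal 6. The log2 fold change of -0.85 (SE 0.224, edgeR adjusted p = 0.0184) missed the fold threshold, and without 66cl4 animal 3 it was -1.03, past it.

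Mertk had the opposite direction. Its normalised counts were 584, 399, 705, 511 and 531 in 66cl4 and 293, 336, 292, 250 and 321 in 67NR CD45+ libraries. All 66cl4 libraries stood above all 67NR libraries, with a mean 1.83 times as high. The log2 fold change of 0.88 (SE 0.149, edgeR adjusted p = 0.00169) was under the fold threshold. Mertk was, with Adgre1, Spp1 and Apoe, 1 of 4 members whose libraries did not overlap, against 15.1% of all genes.

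Cd68 and Maf differed least among the identity genes. Cd68 ranged from 6182 to 10031 (median 8545) in 66cl4 libraries and from 5453 to 9825 (median 5569) in 67NR libraries, with a log2 fold change of 0.33 (SE 0.180, edgeR adjusted p = 0.211). The 67NR range was stretched by animal 7 at 9825, the other 4 animals standing at 5453 to 6487. Maf ranged from 5825 to 8210 in 66cl4 and from 8204 to 10421 in 67NR libraries, groups that met at a single pair of animals. Its log2 fold change was -0.37 (SE 0.122, edgeR adjusted p = 0.0481), well under the fold threshold.

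Among the lipid-associated genes, Apoe was lower in 66cl4 tumours. Apoe had 8950, 7637, 14293, 8423 and 14222 normalised counts in 66cl4 and 27637, 25539, 21914, 25400 and 36963 in 67NR CD45+ libraries. The groups did not overlap, and the 67NR mean was 2.57 times as high. On the log2 scale the difference was -1.34 (SE 0.211, edgeR adjusted p = 0.00113).

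Spp1 had the largest difference of the 9 genes in CD45+ cells. The 66cl4 libraries held 136771, 71866, 167302, 154660 and 89470 normalised counts and the 67NR libraries 56108, 48922, 34382, 39453 and 33535. The lowest 66cl4 library, animal 4, stood above the highest 67NR library, animal 1, and the 66cl4 mean was 2.92 times as high. On the log2 scale the difference was 1.55 (SE 0.261, edgeR adjusted p = 0.00168). Spp1 alone took 0.408 to 0.807% of all counts in 66cl4 against 0.184 to 0.277% in 67NR CD45+ libraries.

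Trem2 was higher in 66cl4 CD45+ cells by a margin that single libraries could move. Its normalised counts were 1234, 560, 1530, 1005 and 1018 in 66cl4 and 610, 350, 509, 537 and 606 in 67NR libraries. The 66cl4 animal 4 lay within the 67NR range, and the other 4 lay above it. The log2 fold change of 1.04 (SE 0.233, edgeR adjusted p = 0.00826) fell under the threshold of 1 without 66cl4 animal 3 (0.97), without 66cl4 animal 5 (0.89) or without 67NR animal 4 (0.93). Without 66cl4 animals 5 and 6 it was 0.84, with an adjusted p of 0.0539.

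Gpnmb was barely measured. Its range was 13.4 to 47.3 normalised counts for 66cl4 CD45+ libraries and 18.0 to 51.7 for those of 67NR tumours, which overlapped almost fully and rest on 14 to 47 estimated counts per library. The log2 fold change of -0.10 (SE 0.392, edgeR adjusted p = 0.894) changed sign without 66cl4 animal 4 (0.08) or 67NR animal 4 (0.26), so no direction is given for it.

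Levels of different genes can be compared only per transcript length, as TPM, a share of all transcripts after division by length. In 66cl4 CD45+ cells Spp1 led with 7166 ± 1982 TPM (SD, n = 5), ahead of Apoe at 682 ± 236 and Cd68 at 593 ± 136 TPM, which overlapped. Maf, Trem2, Adgre1 and Cx3cr1 followed at means of 98.6, 86.9, 83.6 and 54.5 TPM, each overlapping the next. Mertk at 11.3 and Gpnmb at 0.634 TPM stood below them without overlap. In 67NR CD45+ cells Spp1 at 2417 ± 390 and Apoe at 1706 ± 453 TPM overlapped, and Apoe stayed below Spp1 in 4 of 5 libraries. There Adgre1 (179 TPM) came before Maf (126 TPM) and Cx3cr1 (95.9 TPM), and Trem2 (41.7 TPM) stood below these 3 without overlap.

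Because the summed level of the macrophage reference genes did not overlap between the tumours, the fit was repeated with their summed counts as library sizes. On this scale the median over all genes was 0.64, whereas calls are set against 0, so higher values hold a shift common to most genes. In the first fit, where that median was 0.01, Mertk stood at 0.88 and Cd68 at 0.33. Of the 9 genes 3 were called higher, against 19.0% of all genes, and 0 lower, against 3.55%. The 3 were Spp1 at a log2 fold change of 2.10, Trem2 at 1.62 and Mertk at 1.48, with edgeR adjusted p-values of 0.000255, 0.000321 and 0.000176. Apoe (-0.74, adjusted p = 0.0089) and Adgre1 (-0.48, adjusted p = 0.0406) were below the reference genes without reaching the fold threshold. With Csf1r alone as the reference, the median over all genes was 0.23 and Apoe, at -1.17, was called lower. Cd68 stood at 0.99 (adjusted p = 0.00131), just under the fold threshold, and was called in 6 of 14 alternatives. Cx3cr1, Maf and Gpnmb stood at -0.20, 0.25 and 0.50 with adjusted p-values of 0.483, 0.296 and 0.338. Of these, Maf turned to -0.19 with Csf1r alone and Cx3cr1 to 0.02 without 66cl4 animals 5 and 6.

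**Figure D2:**
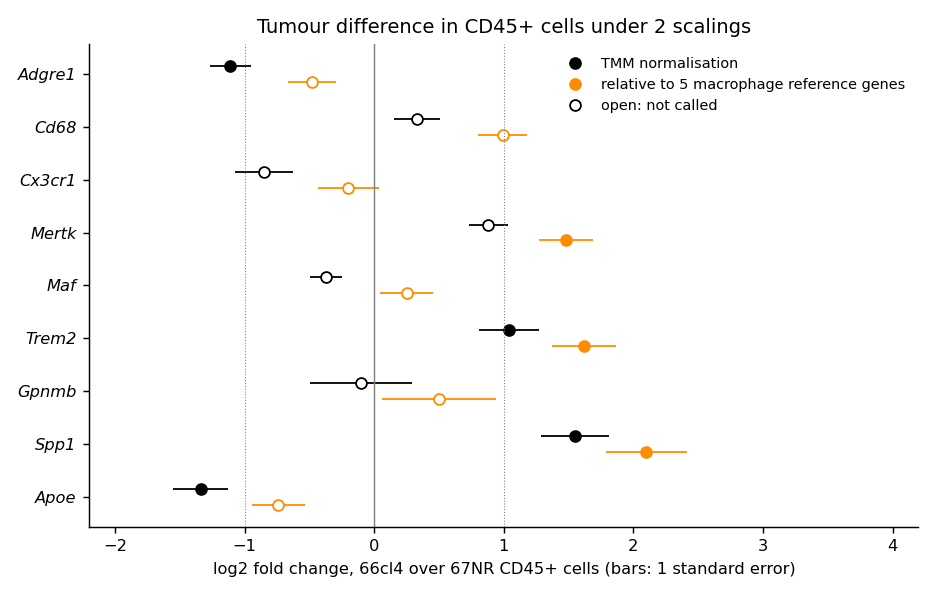
Log2 fold change of 66cl4 over 67NR CD45+ cells (n = 5 animals each) for the 9 genes, with TMM normalisation and relative to 5 macrophage reference genes; bars are 1 standard error, filled points are called and dotted lines mark a log2 fold change of 1 in each direction. Spp1 and Trem2 are called higher on both scales, Adgre1 and Apoe are called lower on the first scale only, and Mertk is called higher on the second only. The median over all genes is 0.01 on the first scale and 0.64 on the second, whereas calls on both are set against 0.

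Ratios of genes within a library do not depend on how libraries are scaled. In CD45+ cells the ratio of Trem2 to Adgre1 normalised counts was 0.228 to 0.426 in 66cl4 against 0.0519 to 0.124 in 67NR libraries. Ratios of Mertk to Adgre1 (0.153 to 0.205 and 0.038 to 0.0595) and of Cd68 to Adgre1 (2.32 to 3.47 and 0.847 to 1.16) also separated the tumours. The ratio of Apoe to Adgre1 did not, at 3.09 to 4.10 in 66cl4 against 3.40 to 5.60 in 67NR libraries. Apoe per Trem2 was 7.25 to 14.0 in 66cl4 against 43.0 to 73.1 in 67NR libraries, without overlap.

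The comparison of gates asks how far each gene belongs to the leukocytes of a tumour. In 66cl4 tumours 7 of the 9 genes were called higher in CD45+ cells, against 23.9% of all genes, and 0 lower, against 20.5%. Log2 fold changes were 6.05 to 6.68 for Adgre1, Cd68, Cx3cr1, Mertk, Maf and Apoe, and 2.99 (SE 0.264, edgeR adjusted p = 6.67e-07) for Trem2. Gpnmb (0.63) and Spp1 (-0.27) were not called, with adjusted p-values of 0.204 and 0.267. In 67NR tumours 8 genes were called higher in CD45+ cells, against 20.2% of all genes, and 1 lower, against 19.6%. There Trem2 stood with the identity genes and Apoe, all at 4.40 to 5.54, and Gpnmb was 1.45 (edgeR adjusted p = 0.00485). The gene called lower in 67NR CD45+ cells was Spp1, at -1.58 (SE 0.167, edgeR adjusted p = 7.56e-06).

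The level in CD45- cells as a share of that in CD45+ cells sets the 9 genes beside leukocyte markers in general. Markers were used where their mean in CD45+ cells, by which the share is divided, was at least 100 normalised counts. In 66cl4 tumours 39 such leukocyte markers had a median share of 0.496%, and Ptprc had 0.385%. Adgre1 (0.935%), Cx3cr1 (0.965%), Maf (1.03%), Mertk (1.24%), Cd68 (1.25%) and Apoe (1.47%) lay close above that median. Trem2 had 12.3%, a share that 1 of the 39 markers exceeded. That marker was Eomes, a transcription factor of NK cells, at 112%, and the next below Trem2 was the B cell gene Cd79a at 7.49%. In 67NR tumours the median over 38 leukocyte markers was 1.92%, Trem2 had 2.90%, and 9 markers exceeded it. Gpnmb and Spp1 had shares of 60.9 and 118% in 66cl4 and of 36.3 and 300% in 67NR tumours. Gpnmb, with CD45+ means of 26.5 and 28.0, lay below the level asked of the markers.

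**Figure D3:**
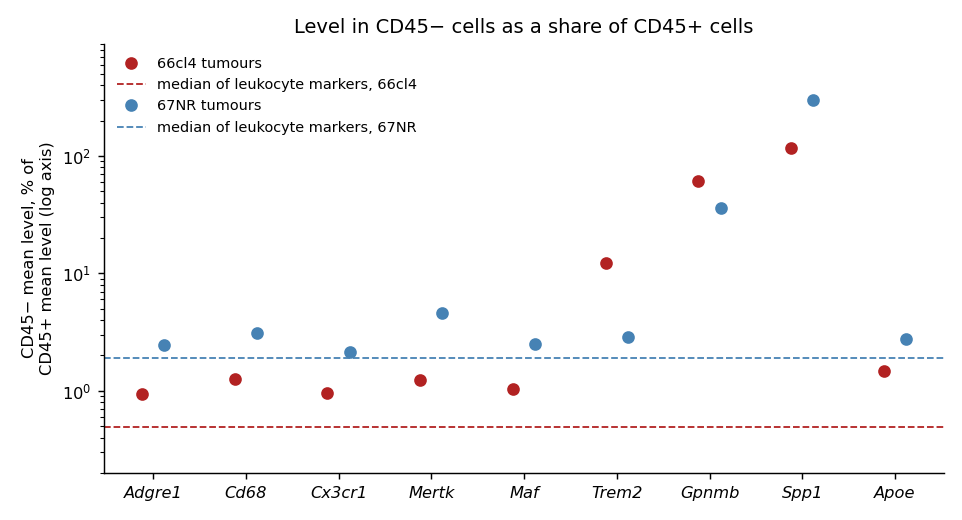
Mean level in CD45- cells as a percentage of the mean level in CD45+ cells (log axis) for the 9 genes in both tumours, with n = 5 animals per mean. Dashed lines are the medians of leukocyte markers with a CD45+ mean of at least 100, 0.496% in 66cl4 and 1.92% in 67NR tumours. Trem2 of 66cl4 tumours, at 12.3%, stands apart from the identity genes and Apoe, and Gpnmb and Spp1 stand highest in both tumours.

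The tumour difference in CD45- cells was opposite for Trem2 and for the other macrophage genes called. Adgre1, Cx3cr1, Maf and Apoe were lower in 66cl4 than in 67NR CD45- cells, by log2 fold changes of -2.45, -1.99, -1.62 and -2.23, whereas Trem2 was higher, by 3.11. Of 8 genes tested, 1 was called higher, against 13.2% of all genes, and 4 lower, against 18.9%. Mertk, at 2.12 to 28.5 normalised counts, did not pass the filter in this comparison. Trem2, Adgre1 and Cx3cr1 were the 3 genes whose libraries did not overlap, as was the case for 52.9% of all genes. The median over the 8 genes was -1.29, and that over all genes was -0.01.

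Trem2 had 96.9, 103, 148, 184 and 124 normalised counts in 66cl4 CD45- libraries of animals 3 to 7, from 73 to 178 estimated counts. In 67NR CD45- libraries of animals 1, 4, 5, 6 and 7 it had 15.8, 26.3, 14.0, 15.6 and 4.09, from 4 to 35 estimated counts. Every 66cl4 library stood above every 67NR library, with a mean 8.65 times as high and an edgeR adjusted p of 1.38e-06. This call held in all alternatives tried.

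Adgre1 in CD45- cells showed the reverse order. It had 1.33 (1 estimated count), 8.73, 76.6, 12.7 and 41.9 normalised counts in 66cl4 and 96.5, 392, 95.7, 134 and 91.0 in 67NR libraries. The groups did not overlap, and the 66cl4 libraries differed among themselves by far more than they did for Trem2. The edgeR adjusted p was 0.0185. The log2 fold change ran from -3.26 without 66cl4 animal 5 to -1.83 without 67NR animal 4, and the call was lost with the replicate number as a block (adjusted p = 0.113). That number pairs no animals across tumours. Apoe had 38.5, 76.7, 392, 73.3 and 205 normalised counts in 66cl4 and 625, 1419, 609, 793 and 359 in 67NR libraries, and animal 5 of 66cl4 stood above animal 7 of 67NR. Its edgeR adjusted p was 0.0117, or 0.0906 with the block, and its log2 fold change was -2.89 without 66cl4 animal 5. Maf (adjusted p = 0.0293) overlapped between the tumours, at 21.2 to 178 and 124 to 415, lost its call in 6 of 17 alternatives and stood at -2.27 without 66cl4 animal 5. Cx3cr1, at 13.7 to 46.9 and 67.5 to 217, did not overlap and had an adjusted p of 0.000525. Cd68 (-0.96, adjusted p = 0.0659) was not called, and was called at -1.38 without 66cl4 animal 5.

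Ptprc moved with the genes that were lower, at 10.6 to 161 normalised counts in 66cl4 against 145 to 473 in 67NR CD45- libraries (log2 fold change -1.79, edgeR adjusted p = 0.0361). The macrophage reference genes summed to 66.4 to 969 in 66cl4 against 823 to 2612 in 67NR CD45- libraries, and Tyrobp, the signalling adaptor of Trem2, was also lower (-1.50, adjusted p = 0.0425). The part of remaining leukocytes in these differences was not tested. Trem2 per Tyrobp was 0.802 to 5.62 in CD45- cells of 66cl4 tumours but 0.0198 to 0.0973 in those of 67NR tumours. In CD45+ cells it was 0.0461 to 0.0954 for 66cl4 and 0.0327 to 0.0638 for 67NR tumours. Trem2 per Adgre1 was 1.93 to 73.0 in 66cl4 against 0.0449 to 0.164 in 67NR CD45- cells. Both ratios were higher in every CD45- library of 66cl4 tumours than in any library of the other 3 groups. Epithelial markers (6 genes) summed to 6057 to 6844 in 66cl4 against 125 to 391 in 67NR CD45- cells, and their relation to Trem2 was not tested.

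**Figure D4:**
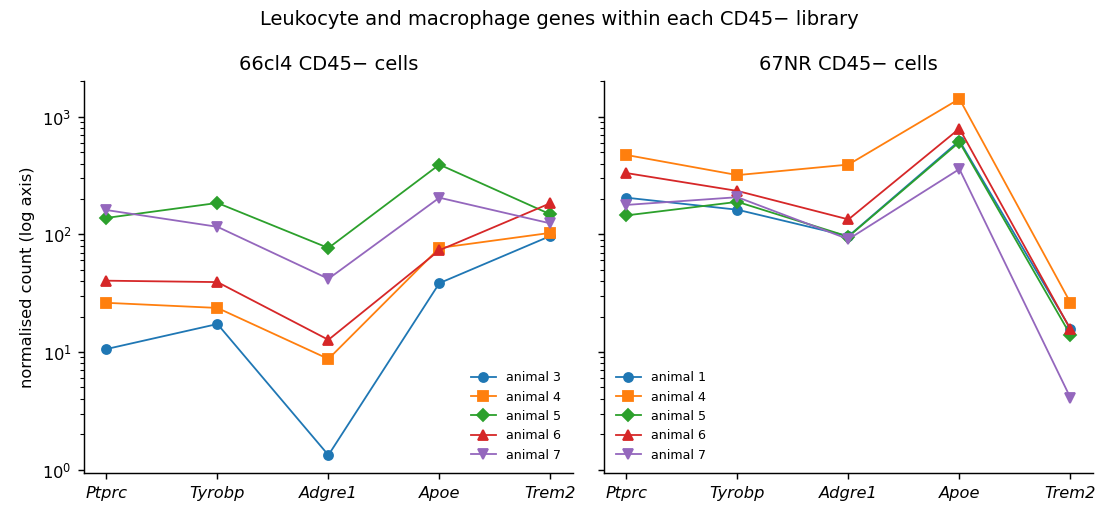
Normalised counts (log axis) of Ptprc, Tyrobp, Adgre1, Apoe and Trem2 in the CD45- libraries, with a line for each animal and the tumours in separate panels. In 66cl4 tumours Ptprc, Tyrobp, Adgre1 and Apoe spread over a wide range while Trem2 stays at 96.9 to 184; in 67NR tumours Trem2 lies at 4.09 to 26.3. Lines serve to compare animals and tumours, not levels between genes.

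Spp1 was abundant in both gates. CD45- libraries held 146776, 126400, 139408, 166740 and 153276 normalised counts in 66cl4 and 142189, 121918, 116341, 121971 and 133751 in 67NR tumours. These groups overlapped (log2 fold change 0.23, SE 0.114, edgeR adjusted p = 0.0819). Within an animal, CD45+ cells had more Spp1 than CD45- cells in 1 of 5 animals with 66cl4 tumours, animal 5, and in 0 of 5 with 67NR tumours. As a share of the CD45- level, Spp1 in CD45+ cells was 84.6% in 66cl4 and 33.4% in 67NR tumours. Fibroblast markers, which belong to the CD45- gate, had shares of 4.03 to 8.81% and 5.41 to 16.5%. The part of CD45- cells or their RNA in the Spp1 of CD45+ libraries was not tested. Spp1 per Cd9, a tetraspanin also listed among lipid-associated macrophage genes, overlapped in all 4 groups at 13 to 22.1.

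The tumour difference itself differed between the gates for 4 of the 9 genes, by the interaction of tumour and gate over the 20 libraries, a test passed by 43.1% of all genes. The interaction is the log2 fold change in CD45+ cells minus that in CD45- cells. It was -2.05 for Trem2 (edgeR adjusted p = 0.00058), 1.33 for Spp1 (adjusted p = 0.000665) and 1.30 for Cd68 (adjusted p = 0.0321). The fourth was Mertk, at 1.87 (adjusted p = 0.00734), a value that rests on 2 to 38 estimated counts in CD45- libraries, where Mertk had been too low to be tested. Genes passing with a positive value were common in some leukocyte lists and fewer in others. Ptprc stood at 1.65 (adjusted p = 0.045), and 5 of 7 monocyte, 6 of 8 neutrophil, 4 of 7 dendritic cell and 6 of 6 mast cell markers passed in that direction. Fewer did so among macrophage reference genes (1 of 5), T cell markers (1 of 6) and B cell markers (1 of 5). The median values of these lists were positive too, at 1.10, 1.80 and 3.75. Of 3 NK cell markers, with a median of -0.69, 0 passed in that direction and 1 in the other. The relation of these values to those of Mertk and Cd68 was not tested. Trem2 was higher in 66cl4 tumours in both gates, and by more in CD45- cells. The Cd68 call was lost in 11 of 26 alternatives, with adjusted p-values up to 0.114. Without the CD45- library of 66cl4 animal 5, 7 genes passed, Adgre1 (2.07), Maf (1.82) and Apoe (1.47) in addition.

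For each member, the genes with the most similar profile were those with the smallest root mean square difference of centred log2 levels over the 20 libraries, among 16453 genes. The nearest gene to Spp1 was Cd9, at 0.21, where Spp1 itself varied by 0.78 around its mean. Maf lay closest to Gatm (0.21), Fcgr2b (0.25) and Tlr7 (0.26), and Apoe to C1qb (0.37), a subunit of complement C1q. Mertk lay closest to Dhrs3 (0.29) and then to Cd68 (0.36), the only member among another member's 3 nearest genes. The nearest genes were Cfp (0.30) for Cd68, Pik3ap1 (0.42) for Adgre1 and Prex1 (0.44) for Cx3cr1. Trem2 had no neighbour closer than Eepd1 at 0.49, and for Gpnmb the nearest difference, 0.50, compared with its own variation of 0.80.

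The other genes of these pathways, in lists chosen with earlier results of these data known, moved in both directions in CD45+ cells. Of 13 further macrophage lineage and resident genes tested, 3 were higher and 1 lower in 66cl4 tumours, with a median log2 fold change of 0.41. Siglec1, a sialic acid receptor of resident macrophages, was lower (-1.76), and Lyve1, a hyaluronan receptor (1.54), and Msr1, a scavenger receptor (1.43), were higher. None of the 5 macrophage reference genes was called, although C1qa, C1qb and C1qc had adjusted p-values of 0.0182, 0.0114 and 0.0231 at log2 fold changes of -0.87, -0.89 and -0.78. Without 66cl4 animal 7, 2 of these 5 were called lower.

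Of 23 genes of TREM2 signalling and lipid-associated macrophages, 6 were higher, 3 lower and 14 not called, with a median of 0.32. The largest were Ctsk (2.79), a lysosomal protease, Cd36 (2.51), a fatty acid receptor, and Abca1 (1.63), a cholesterol exporter. Cd9, the nearest gene to Spp1, was also higher (1.57, edgeR adjusted p = 0.00506). Tyrobp was not called, at 0.22 (adjusted p = 0.563), and the ratio of Trem2 to Tyrobp overlapped between the tumours in these cells. None of the 4 MiT/TFE factors, regulators of lysosomal genes and of Gpnmb, was called.

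Among 10 efferocytosis partners of Mertk, 1 was higher and 3 were lower in 66cl4 CD45+ cells. Tgm2, a transglutaminase, was higher (1.99), and Tyro3, a receptor of the same family as Mertk (-1.99), and Gas6, a ligand of that family (-1.59), were lower. Tyro3 rests on only 2 to 7 estimated counts per library in 66cl4 and 11 to 25 in 67NR tumours. Of 6 Maf and Bach factors tested, 2 were higher, Bach2 (1.78) and Maff (1.49), and 1 was lower, Mafa (-2.47). Mafa rests on only 2 to 9 estimated counts per library in 66cl4 and 11 to 54 in 67NR tumours. Of 11 ligands and receptors of the 9 proteins, Cd44, a receptor for osteopontin, was higher (1.38), and Cx3cl1, the ligand of Cx3cr1, was lower (-1.42). The background for these counts is that of all genes given above, 5.01% higher and 6.82% lower.

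**Figure D5:**
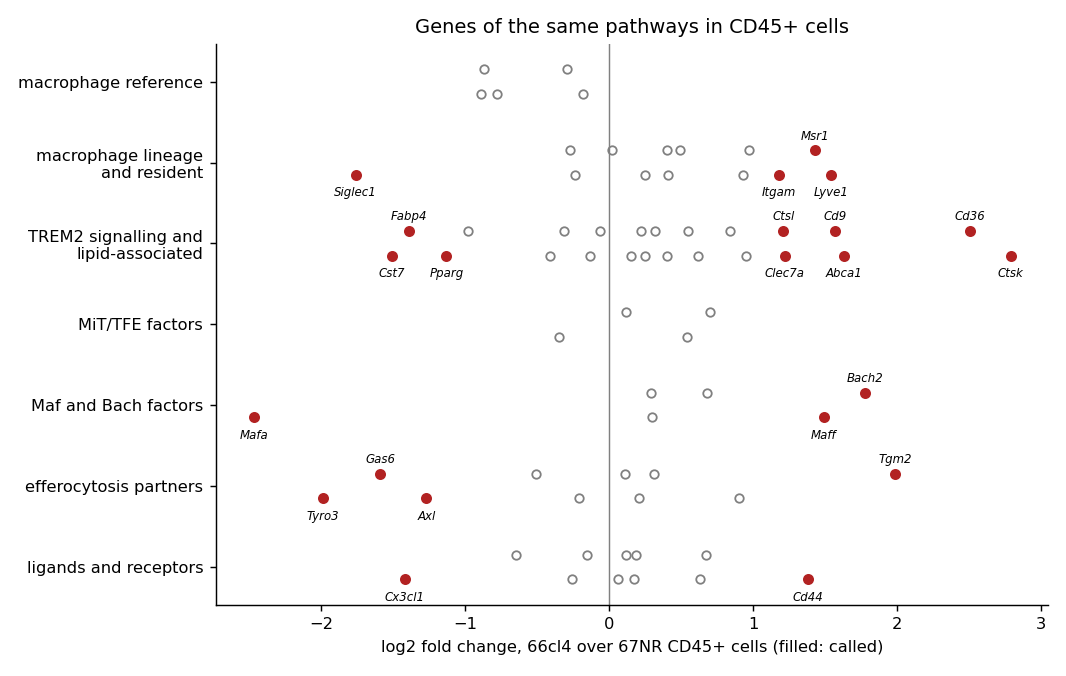
Log2 fold change of 66cl4 over 67NR CD45+ cells (n = 5 animals each) for genes of the same pathways, with a row for each list and a point for each gene; filled points with names are called. Called genes lie on both sides of 0 in 5 of the 7 lists, and the macrophage reference genes and MiT/TFE factors have no called gene.

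In CD45- cells more genes of the TREM2 and efferocytosis lists were lower than higher in 66cl4 tumours. Ptprc was lower too, as were 4 of 5 endothelial and 4 of 8 fibroblast markers tested, with 1 fibroblast marker higher. Of 22 TREM2 and lipid-associated genes tested, 3 were higher and 9 lower in 66cl4 tumours (median -0.78), led by Fabp4 (-4.17), Abca1 (-3.82) and Pparg (-3.51), genes of lipid transport and its control. The shares over all genes in this comparison were 13.2% higher and 18.9% lower. In 67NR tumours Fabp4 averaged 414 normalised counts in CD45- and 80.1 in CD45+ cells. Abca1 averaged 1047 and 1563 there, and Pparg 49.0 and 445. The cell types behind the lower values in 66cl4 CD45- cells were not tested. Of 10 efferocytosis partners 1 was higher and 5 were lower, and of 12 ligands and receptors 3 were higher and 3 lower. Vldlr, a lipoprotein receptor that binds apolipoprotein E, had the largest difference of these (3.79, edgeR adjusted p = 8.32e-06). Between gates, all 13 lineage and resident genes tested were higher in CD45+ cells in both tumours, with medians of 6.59 in 66cl4 and 4.89 in 67NR tumours. Of the 23 TREM2 and lipid-associated genes, 16 and 13 were higher in CD45+ cells of 66cl4 and 67NR tumours, and 1 and 3 were lower. Over all genes, 23.9 and 20.2% were higher and 20.5 and 19.6% lower in CD45+ cells of the 2 tumours.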

How the data were processed

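RNA from sorted cells was sequenced from SENSE mRNA libraries. Per the paper's methods the reads were trimmed with fastp, estimated on transcripts with Salmon 1.3.0 and summed to genes with tximport. The authors deposited estimated counts of 52783 genes, without normalisation, which were rounded to whole numbers here. The human build GRCh38 is named for this step, whereas the identifiers are those of mouse, and the mouse build is not given in the sources used here. Symbols were found for 51492 identifiers. A read that fits several genes is divided by the estimation.

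Libraries were grouped by their titles. Tests were edgeR 4.0.16's quasi-likelihood F test (R 4.3.3) after TMM normalisation, robustly fitted, on genes kept by its default filter (minimum count 10, minimum total 15). P-values were adjusted by Benjamini-Hochberg over all genes tested. Comparisons of tumours and of gates share libraries. Levels are counts divided by size factors of DESeq2 1.42.0, and TPM used reference transcript lengths. Genes without a length held 2.58% of all counts and were set to 0 in the TPM. Log2 levels used a pseudocount of 1. A count of 0 allows up to 3 counts, or 1.07e-05 to 2.31e-05% of a library, counting error only. The fits were tested on simulated counts. No pair of replicates agreed within sampling noise.

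Both gates of an animal share its number, which pairs them: correlations of their deviations from group means ran from 0.0245 up to 0.124 for 66cl4 animals and from -0.00142 up to 0.303 for 67NR animals. Across tumours a shared number marks nothing else.

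The 9 genes and the lists were chosen with earlier results of these data known. Named genes are the 9, Ptprc, per list at most the 3 largest called changes, those a result turns on, and the 3 most similar genes per member, of which the nearest are given. Alternatives were RLE factors, the Wald test of DESeq2, a filter of at least 10 counts in 5 libraries or none, a fit over all 20 libraries, the replicate block, leaving out 66cl4 animals 5 and 6 or each library in turn, and, for reference scaling, Csf1r alone and a geometric mean. Figures were drawn with matplotlib 3.10.9.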

Additional observations from a re-analysis of the deposited data

Results flagged for a closer look

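In 36 groups of 5 levels (9 genes in 4 groups), chance alone would be expected to set about 1 in 20 groups apart, or 1.8, and 4 had a library far from the others. The CD45- library of 67NR animal 4 stood high for Adgre1 (392 normalised counts, others 91.0 to 134) and for Cx3cr1 (217, others 67.5 to 83.4), and its Ptprc was also the highest of its group, at 473. The CD45+ library of 67NR animal 7 stood high for Cd68 (9825, others 5453 to 6487), and that of 67NR animal 4 for Gpnmb (51.7, others 18.0 to 26.5).

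For 4 of the 9 genes the tumour difference in CD45+ cells differed from that in CD45- cells, which was so for 43.1% of all genes. The interaction was 1.30 for Cd68, 1.87 for Mertk, -2.05 for Trem2 and 1.33 for Spp1 (edgeR interaction, adjusted p = 0.0321, 0.00734, 0.00058 and 0.000665). The Mertk value rests on 2 to 38 estimated counts in CD45- libraries, where the gene was too low to be tested, and the Cd68 call was lost in 11 of 26 alternatives.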

How the results depend on the processing

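Of 946 repeats of the members' log2 fold changes, 896 kept their direction and side of the threshold, 24 lost and 22 gained a call, and 4 changed sign. Of 402 repeats of list counts, 21 moved by over 1.5 times. The sign changes were Gpnmb in CD45+ cells, at 0.08 without 66cl4 animal 4 and 0.26 without 67NR animal 4 (-0.41 to 0.26 over all single libraries left out), and, relative to the reference genes, Maf at -0.19 with Csf1r alone and Cx3cr1 at 0.02 without 66cl4 animals 5 and 6. When single libraries were left out, the number of members called was 3 to 4 in CD45+ cells, 4 to 7 in CD45- cells, 7 in the gate comparison of 66cl4, 9 in that of 67NR, 3 to 7 in the interaction and 3 to 4 relative to the reference genes.

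With the replicate number as a block, 2 members were called in CD45- cells, where 5 were called without it: the adjusted p was 0.113 for Adgre1, 0.186 for Maf and 0.0906 for Apoe. Numbers are shared across tumours without marking a pair (correlations -0.124 to 0.0165 in CD45- and 0.000441 to 0.0705 in CD45+ cells, with 0 and 1 of 8 libraries closest to their own number). Number 3 occurs only in 66cl4 and number 1 only in 67NR tumours, so in a tumour comparison the block takes up their libraries. In CD45+ cells the block gave -1.03 for Cx3cr1, past the threshold, and in the interaction it gave 1.46 for Maf (adjusted p = 0.0419). The block, which in the gate comparisons joins libraries of one animal, changed no other call. The causes were not tested. Maf in CD45- cells lost its call with the block, with no filter and without each of 4 single libraries (66cl4 animals 4 and 6, 67NR animals 1 and 4), with adjusted p-values from 0.059 to 0.186. Gpnmb, at 6 to 47 estimated counts per library, and Mertk in CD45- cells, at 2 to 38, were limited by depth.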
